A study of Mus musculus with 48 samples.

Results

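Cell cycle and proliferation genes were followed in hippocampal microglia of mouse pups reared under 3 conditions. The set held 6 genes picked by symbol from the 478 genes measured: Mki67, Ccnb1, Stmn1, Bub3, E2f3 and Cables1. All 6 were present in each of the 3 comparison tables. The animals were 17 days old, of strain Balbc/Byj and of both sexes. They belonged to the rearing groups CTL (control), LB and UPS, with 16 pups each, 8 male and 8 female. As background, LB is rearing with limited bedding and nesting material, and UPS adds unpredictable stress to early life; the labels give the abbreviations and refer to earlier work for the procedure. No transgene or drug is named, so the groups differ by rearing alone as far as the labels say. From every pup about 60000 microglia, enriched on Percoll and then sorted, were lysed, and their RNA molecules were counted with the barcoded probes of the nCounter mouse glial panel, with no amplification step. Per the labels 4 to 5 litters supplied the 8 pups of a group and sex. Littermates were therefore treated as independent, which makes p-values too small where they are alike.

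Microglia settle in the brain before birth and then multiply there during early postnatal life, before dividing only rarely in the adult. A dividing cell passes the restriction point under the control of E2F transcription factors, copies its DNA, and enters mitosis when cyclin B binds its kinase. The spindle checkpoint then holds the anaphase-promoting complex back until every chromosome is attached. Transcripts such as Mki67 and Ccnb1 are made mainly in cycling cells, while Bub3, E2f3 and Cables1 are also present in cells that are not dividing. In a lysate of pooled cells, fewer cycling cells and less of a transcript per cycling cell cannot be told apart.

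The values are the log2 ratios, p-values and adjusted p-values of the authors' deposited tables, 1 table for each pair of groups. The numerator of each ratio is not stated in the headers. If it is the later-named group, a positive sign means more transcript in LB (CTL and LB table) or in UPS (other tables), and the reverse reading turns every sign together. Signs are therefore given as deposited. A gene passed at a Benjamini-Hochberg adjusted p below 0.05 over all 478 genes. Values per animal were not used here, so counts, depth and whether single animals' values overlap between groups are unknown. The 95% intervals rest on a standard error recovered from each deposited ratio and its p. All 15 microglial markers looked for were among the measured genes, which per the series text were those above 20 counts. Of the 15, Mertk passed in both tables with UPS and Tmem119 between LB and UPS, so microglial markers were not all level between the groups.

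RefSeq promoter windows of build GRCm38.p6, from 250 bases before to 50 after a start site, were found for 4 of the 6 members. Mki67 and Ccnb1 are shown as the cycling-cell markers, and E2f3 as a regulator that passed. Capitals mark matches, on either strand, to TTTGAA or TTCGAA (the CHR element of late cell cycle genes), CCAAT (bound by NF-Y) and TTCGCGC or TTGGCGC (the core of E2F sites).
Mki67, chr7:135716330-135716629, minus strand: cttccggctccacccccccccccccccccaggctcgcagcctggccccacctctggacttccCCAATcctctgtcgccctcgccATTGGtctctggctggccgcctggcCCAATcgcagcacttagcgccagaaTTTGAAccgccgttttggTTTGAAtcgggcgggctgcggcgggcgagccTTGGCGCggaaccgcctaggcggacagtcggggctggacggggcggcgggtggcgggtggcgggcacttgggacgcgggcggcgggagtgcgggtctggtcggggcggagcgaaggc
Ccnb1, chr13:100786437-100786736, minus strand: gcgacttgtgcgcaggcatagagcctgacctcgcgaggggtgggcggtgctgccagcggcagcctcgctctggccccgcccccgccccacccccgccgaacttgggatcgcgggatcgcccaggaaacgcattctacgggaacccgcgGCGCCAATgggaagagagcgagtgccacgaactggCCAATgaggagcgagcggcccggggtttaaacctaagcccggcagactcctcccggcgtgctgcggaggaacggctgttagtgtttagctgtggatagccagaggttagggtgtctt
E2f3, chr13:29986014-29986313, minus strand: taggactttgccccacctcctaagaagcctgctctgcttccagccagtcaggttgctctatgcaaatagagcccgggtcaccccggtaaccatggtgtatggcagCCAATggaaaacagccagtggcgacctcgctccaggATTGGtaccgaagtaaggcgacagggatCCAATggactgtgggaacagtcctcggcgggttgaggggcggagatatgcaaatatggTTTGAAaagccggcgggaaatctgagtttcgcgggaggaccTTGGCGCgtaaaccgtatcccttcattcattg
The Mki67 window held 2 CHR, 3 CCAAT and 1 E2F match. In Ccnb1 there were 2 CCAAT matches and 1 E2F match, which overlaps one of the CCAAT boxes, and no CHR match in these letters. The E2f3 window held 1 CHR, 3 CCAAT and 1 E2F match, while a second E2f3 window at another start site held none of the 3 elements. Both windows of Bub3, which overlap each other, held 1 CHR and 2 CCAAT matches and no E2F match. Of all 32851 windows, 19.2% held a CHR match, 37.4% a CCAAT match and 3.89% an E2F match. A match is a description of letters and not evidence of binding.

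Of the 6 members, the regulators E2f3 and Cables1 passed in both comparisons with UPS, and no member passed in the remaining pair, CTL and LB. With the stricter Benjamini-Yekutieli adjustment, E2f3 alone passed for CTL and UPS and Cables1 alone for LB and UPS among the 6. In the authors' deposited tables the proliferation markers Mki67, Ccnb1 and Stmn1 carried larger ratios than E2f3 between CTL and UPS, and none of the 3 passed in any table. The background was 0% of the 478 genes past the threshold between CTL and LB, 4.81% between CTL and UPS and 6.28% between LB and UPS. Against it stood 0, 2 and 2 of the 6 members. The members were chosen with earlier results of these data known, so these counts are a description and not a test of cell cycle genes. At an unadjusted p below 0.05, 56 of 478 genes (11.7%) and 1 member, Mki67, were found by the authors' deposited table for that pair, CTL and LB. The median log2 ratio of the 6 members in the authors' deposited tables was 0.18, 0.22 and -0.024 in the order CTL and LB, CTL and UPS, LB and UPS. Over all 478 genes the same medians were 0.0035, -0.0025 and -0.010. The member medians weigh all 6 members alike. The standard errors of Mki67, Ccnb1 and Stmn1 were 6.91, 4.50 and 3.52 times the median gene's. The medians were not tested, and the members were chosen with earlier results of these data known. The medians therefore do not show a shift of the set. The tables for CTL and LB and for CTL and UPS share the CTL animals, so their values are not independent of each other.

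**Figure D1:**
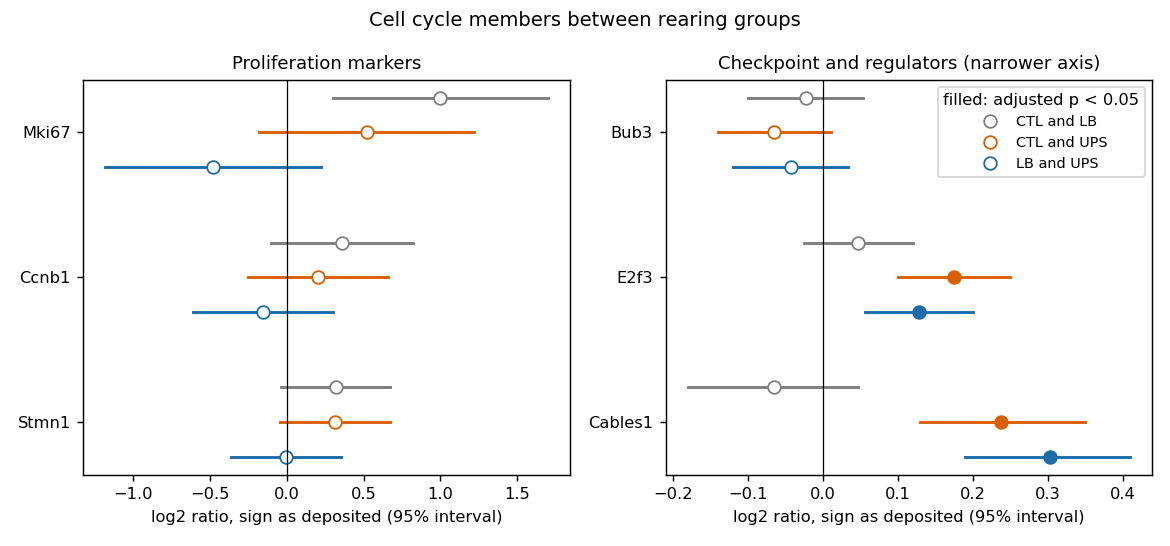
Log2 ratios of the 6 members, signs as deposited, with recovered 95% intervals for CTL and LB (grey), CTL and UPS (orange) and LB and UPS (blue); filled points passed at an adjusted p below 0.05. The 3 proliferation markers on the left have no filled point, and on the right, on a narrower axis, E2f3 and Cables1 are filled in both comparisons with UPS.

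Mki67 encodes Ki-67, a nuclear protein of cycling cells that is lost when cells leave the cycle. For CTL and LB its log2 ratio in the authors' deposited table was 1.00, or 2.00-fold (95% interval 1.23 to 3.25-fold, p = 0.00621, Benjamini-Hochberg adjusted p = 0.198). This was the largest ratio of all 478 genes and the 15th smallest p. Between CTL and UPS the authors' deposited table gave 0.52, or 1.43-fold (interval 0.882 to 2.33-fold, adjusted p = 0.452). Between LB and UPS it gave -0.48 in the authors' deposited table, or 0.716-fold (interval 0.441 to 1.16-fold, adjusted p = 0.479). UPS thus lay between CTL and LB, and neither neighbouring pair in that order differed beyond its interval.

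Ccnb1, cyclin B1, activates Cdk1 at the entry to mitosis. In the authors' deposited tables its log2 ratios were 0.36 for CTL and LB, 0.21 for CTL and UPS and -0.16 for LB and UPS, with adjusted p-values of 0.506, 0.669 and 0.738. The intervals ran from 0.935 to 1.76-fold, from 0.840 to 1.58-fold and from 0.655 to 1.23-fold. The order of the groups was that of Mki67, with UPS in the middle, and all 3 intervals included equal levels.

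Stmn1, stathmin, binds tubulin and destabilises microtubules, and is abundant in dividing cells and in immature neurons. Its log2 ratios in the authors' deposited tables were 0.32 for CTL and LB, 0.31 for CTL and UPS and -0.0053 for LB and UPS. The p-values of the first pair of ratios were 0.0806 and 0.0856 in the authors' deposited tables, and the adjusted p-values of all 3 were 0.473, 0.379 and 0.999. Here the LB and UPS means almost coincided and CTL lay apart from both, but the intervals of 0.972 to 1.60-fold and 0.968 to 1.59-fold included equal levels. The interval between LB and UPS, 0.778 to 1.28-fold, is too wide to show that those groups were alike. Nes, the 1 measured gene of 11 listed for neuronal progenitors, was at 0.38, -0.023 and -0.40 in the authors' deposited tables in the same order and did not pass, and its part in the Stmn1 and Mki67 ratios was not tested.

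Bub3, a subunit of the spindle assembly checkpoint, had the smallest ratios of the set against CTL. They were -0.023 for CTL and LB, -0.065 for CTL and UPS and -0.043 for LB and UPS in the authors' deposited tables, with adjusted p-values of 0.847, 0.394 and 0.584. These estimates were precise: the intervals ran from 0.934 to 1.04-fold, from 0.906 to 1.01-fold and from 0.921 to 1.02-fold. A difference above 1.04-fold in the positive direction lay outside all 3 of them.

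E2f3 is a transcription factor that switches on genes for entry into S phase. Its log2 ratio was 0.18 between CTL and UPS in the authors' deposited table, or 1.13-fold (interval 1.07 to 1.19-fold, adjusted p = 0.00171), the 4th smallest p of the 478 genes. Between LB and UPS it was 0.13 in the authors' deposited table, or 1.09-fold (interval 1.04 to 1.15-fold, adjusted p = 0.0189). Between CTL and LB the authors' deposited table gave 0.047 (interval 0.983 to 1.09-fold, adjusted p = 0.613). UPS was thus set apart from both other groups by a small margin, and CTL and LB were not separated.

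Cables1 links cyclin-dependent kinases, among them Cdk5, to the kinases Abl1 and Wee1, and is described as a brake on proliferation. For LB and UPS the authors' deposited table gave a log2 ratio of 0.30, or 1.23-fold (interval 1.14 to 1.33-fold, adjusted p = 0.000277), again the 4th smallest p. Between CTL and UPS it was 0.24 in the authors' deposited table, or 1.18-fold (interval 1.09 to 1.27-fold, adjusted p = 0.00897). Between CTL and LB it was -0.065 in the authors' deposited table (interval 0.885 to 1.03-fold, adjusted p = 0.668). CTL lay between LB and UPS, nearer to LB, from which it was not separated. Both Cables1 and E2f3 carried their passing ratios with the same sign. Neither reached 1.2-fold between CTL and UPS, and only Cables1 did between LB and UPS. The astrocyte gene Slc1a3 and the border macrophage gene Stab1 passed with that sign too, at 0.21 and 0.21 between CTL and UPS and 0.25 and 0.20 between LB and UPS in the authors' deposited tables. Their lists had 2 of 11 and 1 of 9 genes measured, and the part of such cells in the E2f3 and Cables1 ratios was not tested. Most passing genes of the panel carried that sign, 17 of 23 between CTL and UPS and 22 of 30 between LB and UPS.

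The members fell into unlike classes of precision, as the plot of ratio size against standard error shows. The recovered standard error on the log2 scale was 0.347 for Mki67, 0.226 for Ccnb1 and 0.177 for Stmn1. These ranked 5th, 13th and 23rd largest of 478 and were 6.91, 4.50 and 3.52 times the median gene's. For Cables1 it was 0.0554, for Bub3 0.0380 and for E2f3 0.0356. With 16 animals per group, these errors correspond to an SD within a group (log2 scale) of 0.98 for Mki67, 0.64 for Ccnb1 and 0.50 for Stmn1. For Cables1 the SD was 0.16, for Bub3 0.11 and for E2f3 0.10. Besides the spread between animals, this SD can hold error in the counts and any difference between the sexes, and these parts were not separated. To reach the p of the last gene that passed between CTL and UPS, Mki67 would have needed a 2.19-fold ratio, Ccnb1 1.67-fold and Stmn1 1.49-fold, while Cables1 needed 1.13-fold and E2f3 1.08-fold. Differences of the size seen in E2f3 and Cables1 were therefore not detectable in the 3 proliferation markers.

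**Figure D2:**
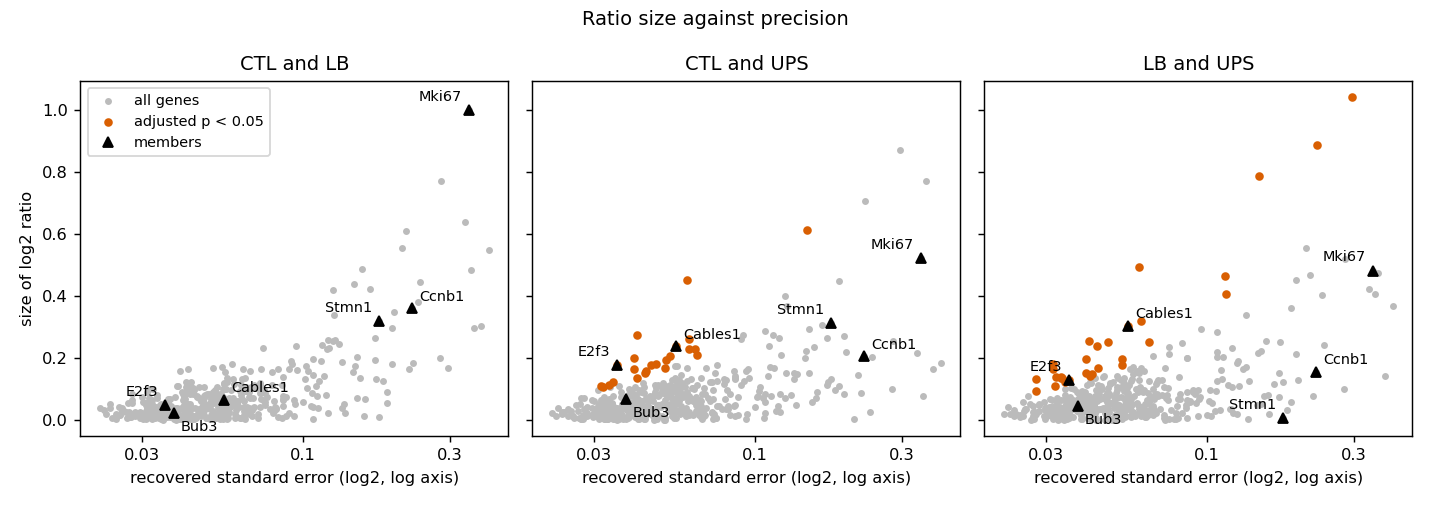
Size of the log2 ratio against its recovered standard error (log2, log axis) for all 478 genes (grey), genes past the threshold (orange) and the 6 members (triangles), 1 panel per comparison. Mki67, Ccnb1 and Stmn1 lie at the imprecise right of each panel, and E2f3 and Cables1 lie among the genes past the threshold in the panels with UPS.

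The series text describes a test of rearing over the 3 groups ahead of the pairs. Such a test was rebuilt for each gene as an F test from its 3 ratios and standard error, with Benjamini-Hochberg adjustment over all 478 genes. It passed 33 genes (6.90%), and 2 of the 6 members. Cables1 had the 3rd smallest p of all genes (F = 16.6, adjusted p = 0.000634, n = 16 per group) and E2f3 the 11th (F = 12.9, adjusted p = 0.00184). Mki67 had an unadjusted p of 0.0225 and an adjusted p of 0.150, and Stmn1, Bub3 and Ccnb1 had adjusted p-values of 0.395, 0.481 and 0.550.

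Each group was also set against the mean of the other 2, and E2f3 and Cables1 were the only members to pass in any of these contrasts. The contrasts reuse the same animals as the pairs. UPS against the mean of CTL and LB passed 35 of 478 genes (7.32%), among them Cables1 at 0.27 on the log2 scale, or 1.21-fold (interval 1.13 to 1.29-fold, Benjamini-Hochberg adjusted p = 0.000158, n = 16 per group). E2f3 passed at 0.15, or 1.11-fold (interval 1.06 to 1.16-fold, adjusted p = 0.000687, n = 16 per group). In the same contrast Mki67 was at 0.020 (interval 0.666 to 1.54-fold) and Ccnb1 at 0.025 (interval 0.774 to 1.34-fold), close to zero but imprecise. Stmn1 was at 0.15 and Bub3 at -0.054, and neither passed.

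LB against the mean of CTL and UPS passed 13 genes (2.72%). Cables1 was the 1 member among them, at -0.18 (interval 0.823 to 0.941-fold, Benjamini-Hochberg adjusted p = 0.0249, n = 16 per group). Because LB and CTL did not differ as a pair for Cables1, this contrast mainly carries its distance between LB and UPS. Mki67 had 0.74 in this contrast, or 1.67-fold (interval 1.10 to 2.54-fold, p = 0.0179, n = 16 per group), and did not pass (adjusted p = 0.195).

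CTL against the mean of LB and UPS passed none of the 478 genes (0%), with 56 at an unadjusted p below 0.05. Among those 56 were Mki67 at -0.76 (p = 0.0153, Benjamini-Hochberg adjusted p = 0.244, n = 16 per group), Stmn1 at -0.31 (p = 0.0469, adjusted p = 0.400) and E2f3 at -0.11 (p = 0.000833, adjusted p = 0.0785). E2f3 held the 5th smallest p of this contrast.

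**Figure D3:**
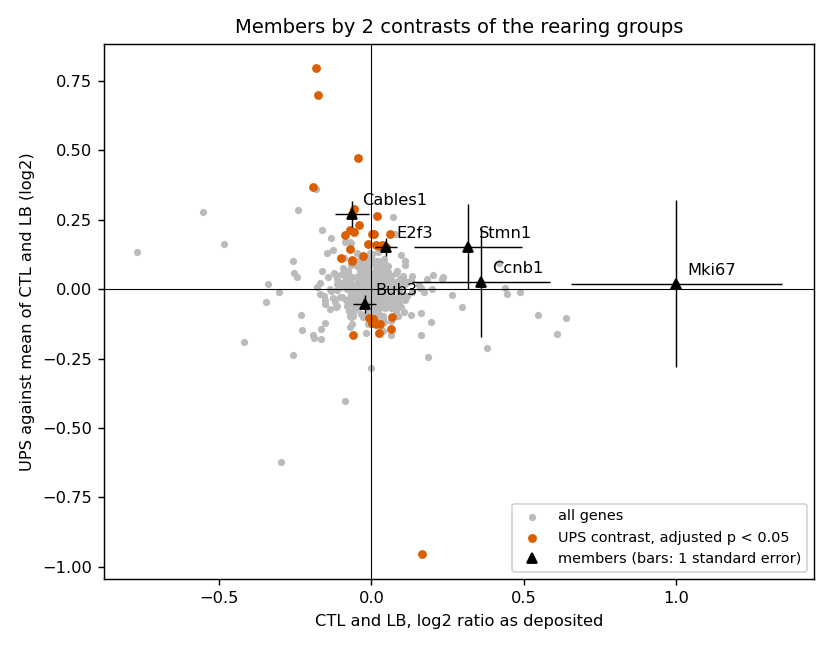
Each gene by its log2 ratio between CTL and LB (horizontal) and its log2 difference of UPS from the mean of CTL and LB (vertical), signs as deposited; orange genes passed in the UPS contrast and bars on the 6 members are 1 standard error. Mki67 lies far along the horizontal axis at 1.00, and Cables1 and E2f3 lie above zero on the vertical axis at 0.27 and 0.15.

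Few genes of the cell cycle lists drawn up here were on the panel besides the members. Of lists for G1 and S phase, mitosis and the spindle checkpoint, the anaphase-promoting complex and SCF ubiquitin ligases, inhibitors and checkpoint kinases, and partners of Cables1, 12 genes besides the members were measured, and none came from the mitosis list. In the authors' deposited tables none of these 12 passed for CTL and LB, 1 passed for CTL and UPS, and none for LB and UPS. The 1 gene was Cdc23, part of the anaphase-promoting complex, with a ratio of -0.14 between CTL and UPS in the authors' deposited table (adjusted p = 0.0461, interval -0.22 to -0.051). Cdc23 therefore carried the opposite sign to E2f3 and Cables1 in that table. By the authors' deposited tables, negative ratios were held by 9 of the 12 genes for CTL and LB (median -0.022), by 11 for CTL and UPS (median -0.070) and by 9 for LB and UPS (median -0.050). Of all 478 genes 226, 245 and 268 were negative in that order. Of the 12, 8 came from the anaphase-promoting complex and SCF list, so the counts mainly describe that list. The lists left out the measured genes Orc3, Orc4 and Orc5 (origin recognition complex) and Ccnh (cyclin H). In that order these were at -0.0345, 0.0334, -0.031 and -0.0014 for CTL and LB in the authors' deposited tables. For CTL and UPS they were at 0.00315, 0.0365, 0.00806 and -0.0351, and for LB and UPS at 0.0376, 0.00311, 0.039 and -0.0337. None passed.

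Among the genes that did not pass, the DNA damage kinase Atr was at -0.11 between CTL and UPS in the authors' deposited table (p = 0.0216, adjusted p = 0.210). Cdk7, which activates other cyclin-dependent kinases, was at -0.0044, -0.022 and -0.017 in the authors' deposited tables. Of the partners of Cables1, Ctnnb1, beta-catenin, had its smallest p between LB and UPS, at -0.052 (p = 0.177, adjusted p = 0.487 in the authors' deposited table), and Cdk5r1, the activator of Cdk5, was at -0.057, -0.074 and -0.017. The Cables1 ratio was thus not accompanied by a passing change in either measured partner. No microtubule gene from the Stmn1 list was measured.

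Growth factors and receptors that act on microglia were the last list, with 6 genes measured of 18. Csf1r, the receptor on which microglial survival and division depend, was at -0.042, -0.0024 and 0.039 in the authors' deposited tables and did not pass. Its ligand Csf1 was at 0.20, -0.021 and -0.22 in the authors' deposited tables and did not pass either. Kitl, the ligand of the KIT receptor, passed at 0.61 between CTL and UPS and 0.79 between LB and UPS in the authors' deposited tables (adjusted p = 0.00989 and 0.000280). Tgfbr1, a receptor for TGF-beta, a cytokine that restrains proliferation in many cells, passed at 0.11 and 0.18 in the authors' deposited tables for these pairs (adjusted p = 0.0367 and 0.000180). The ligand gene Tgfb1 had the opposite sign in these pairs. It was at 0.029, -0.047 and -0.076 in the authors' deposited tables and did not pass (adjusted p = 0.0726 between LB and UPS). Csf3r, the remaining gene of the list, was at -0.17, -0.062 and 0.11 and did not pass. Kitl and Tgfbr1 passed in the comparisons in which E2f3 and Cables1 passed, and with the same sign. That sign was the common one among all passing genes, held by 17 of 23 between CTL and UPS and 22 of 30 between LB and UPS. A link between these genes was not tested.

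**Figure D4:**
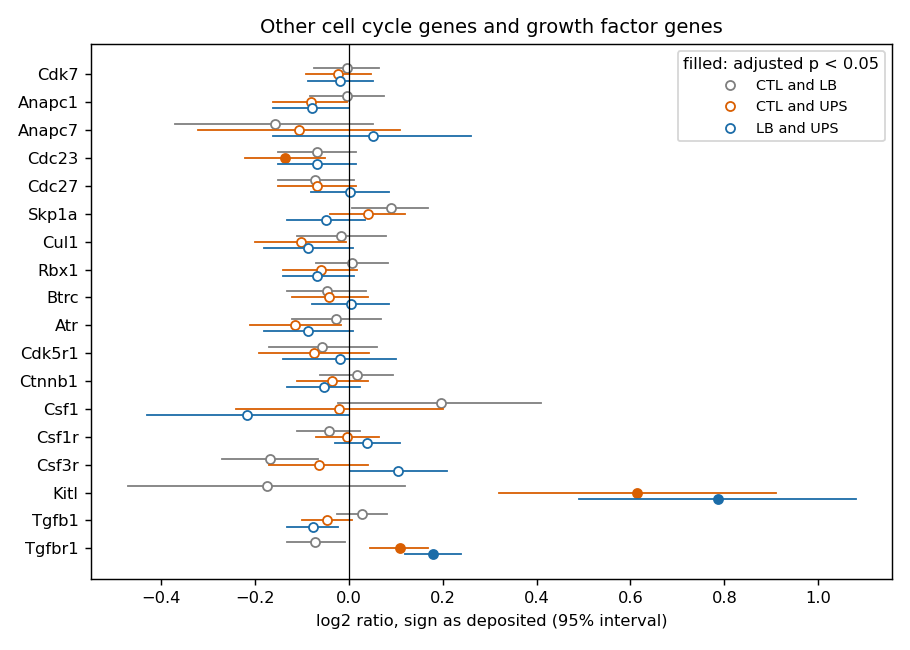
Log2 ratios, signs as deposited, with recovered 95% intervals for the 18 other measured genes of the cell cycle and growth factor lists, in CTL and LB (grey), CTL and UPS (orange) and LB and UPS (blue). Filled points passed: Cdc23 once, on the negative side, and Kitl and Tgfbr1 in both comparisons with UPS, on the positive side.

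The genes with ratios most like each member were found by Euclidean distance over the 3 log2 ratios, which describe 3 group means only. Nearest to Cables1 were Ncf1, a subunit of the phagocyte NADPH oxidase (distance 0.0288), and Slc1a3 (0.0652). E2f3 lay nearest to P2ry6, a receptor for UDP (0.00997), and Ltc4s, leukotriene C4 synthase (0.0115). Neither P2ry6 nor Ltc4s passed in any comparison, and their standard errors were 0.069 and 0.11 against 0.0356 for E2f3. The nearest genes to Mki67 were Ifit3, an interferon-induced gene, at 0.478 and Trim17, a ubiquitin ligase, at 0.543. Distances were not scaled by precision, and the standard error of the Mki67 ratios was 0.347. These larger distances therefore do not show that its ratios were unlike those of other genes. Ccnb1 lay nearest to the chemokine gene Ccl12 (0.0999) and the immediate early gene Egr1 (0.122), and Stmn1 to Tnf (0.150) and Hmox1 (0.182). Bub3 lay nearest to Prkdc, a DNA repair kinase (0.00600), and Txn1, thioredoxin (0.0101).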

How the data were processed

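Lysates of 48 animals were counted in 4 batches of 12, each with 2 animals per rearing group and sex. Per the series text, the authors kept genes above 20 counts and compared pairs of groups in nSolver's advanced analysis with batch as a covariate. Per the file headers, the authors deposited for each gene the log2 fold change, its linear form (a ratio), the p-value and that p-value after Benjamini-Hochberg adjustment. How the counts were normalized is not given in the sources used here.

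No model was refitted, and no values per animal were used. Adjusted p-values were recomputed over the 478 genes of each table, and no gene changed sides of 0.05 against the deposited column. The log2 ratio between LB and UPS equalled the difference of the other ratios to within 0.00300. Standard errors came from each gene's ratio and smallest p with a t distribution of 42 degrees of freedom, the model (rearing and batch, all libraries) whose errors differed least between tables (median 0.147% over 254 genes with at least 2 tables at p below 0.3). Models adding sex (0.160%) or with rearing alone (0.174%) lay close. From these, F tests and contrasts were computed in Python 3.11.15 with scipy 1.17.1, tested on simulated data.

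The plan assumed batch-adjusted fits of group pairs; the recovered degrees of freedom are those of 1 joint fit. Members and gene lists were chosen with earlier results of these data known. Named genes were the members, list genes and marker genes past the threshold, for other lists the gene of smallest p, and the 2 nearest genes per member. Other genes (Nes, Cdk5r1, Csf1, Csf1r, Tgfb1, Csf3r, Orc3, Orc4, Orc5, Ccnh) were added after their values were seen. All 6 members matched symbols of the RefSeq gene table of GRCm38.p6; the panel's build is not stated in the labels used, and promoter coordinates are RefSeq's. Alternatives covered the adjustment, the threshold, a fold minimum, centring and the degrees of freedom.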

Additional observations from a re-analysis of the deposited data

How the results depend on the processing

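The counts of members past the threshold were recomputed under other adjustments, thresholds and centring. With Benjamini-Yekutieli adjustment, 1 member passed between CTL and UPS (E2f3, with 4 genes in all against 23) and 1 between LB and UPS (Cables1, with 13 against 30). With a fold of at least 1.2 required as well, 0 members passed between CTL and UPS (4 genes in all) and 1 between LB and UPS (Cables1, 8 genes in all). A threshold of 0.1 on the adjusted p raised the genes in all to 48 between LB and UPS with the member count still at 2. Of 34 alternatives for these counts, for the F test and for the contrasts, 4 moved the number of members, and they are those given. Adjusting the 3 tables together passed 3 genes between CTL and LB, none of them a member. Centring on the median turned 1 of 18 member ratios, that of Stmn1 between LB and UPS, to 0.0050. Taking the median standard error of the 3 tables, an alternative chosen after seeing the data, moved no count. No paired analysis was possible because the tables carry no replicate numbers or values per animal. Depth per animal is unknown, and the wide intervals of Mki67, Ccnb1 and Stmn1 limit what their ratios can show.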

Other observations

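The rebuilt F test of rearing had an unadjusted p below 0.05 for 94 of 478 genes (19.7%), Mki67, E2f3 and Cables1 among them. The series text gives 87 genes for rearing from an analysis that also held sex, with a threshold that is not stated there.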
